A study of Drosophila melanogaster with 3 samples.

Results

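Chromatin immunoprecipitation with sequencing (ChIP-seq) was used to map CG18262, a Drosophila melanogaster protein of the gene of that name, in whole embryos aged 0 to 16 hours and of mixed sex. The embryos came from a transgenic line with a stable CG18262 fusion with C-terminal GFP, and an anti-GFP antibody precipitated the fusion protein from 3 biological replicates that form 1 group. The labels do not give the promoter that drives the fusion. The genes described here are all those that the Ensembl release 115 annotation (BDGP6.54) classes as snRNA on chromosome arms X, 2L, 2R, 3L, 3R and 4. They number 32 of the 23973 annotated genes on these arms, and none of the 32 lies on 2R or 4. Their symbols are given without the prefix snRNA. A gene counted as having a summit where the highest point of a peak lay within 500 bp of any of its annotated starts. Summits were taken from 5 deposited lists, which were 1 of 30000 peaks for each replicate, 1 of 30000 peaks from the pooled replicates and a list of 8529 peaks thresholded by the irreproducible discovery rate. The thresholded list held the 8529 pooled peaks of highest signal value, so those 2 lists are not independent. Peaks carry the authors' signal value, whose scale is not given, and it served only to rank peaks within a list, with rank 1 for the strongest. Read depth is unknown. Neither the control nor an untagged line was analysed here, so signal of the fusion protein and signal that any precipitation gives at open chromatin cannot be told apart. Each embryo sample was a mixture of all tissues, so fewer cells with the protein at a gene and less protein per cell cannot be told apart either.

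Small nuclear RNAs are short, abundant non-coding RNAs that work in ribonucleoprotein particles. U1 pairs with the 5′ splice site and U2 with the branch point, U4 carries U6 into the spliceosome, and U5 aligns the exons, while U11, U12, U4atac and U6atac replace U1, U2, U4 and U6 in the minor spliceosome. U7 acts in the 3′ end processing of replication-dependent histone mRNAs, and 7SK holds the elongation kinase P-TEFb in an inactive form. Most snRNA genes are transcribed by RNA polymerase II and are not polyadenylated, their 3′ ends being made by the Integrator complex. U6, U6atac and 7SK are transcribed by RNA polymerase III. In flies both kinds of gene carry an upstream promoter element, the proximal sequence element A (PSEA), which the small nuclear RNA activating protein complex (SNAPc) binds, and a TATA box adds to it at the RNA polymerase III genes. The U1, U2 and U6 genes of flies are present in several near-identical copies.

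The sequences of 10 snRNA promoters are shown because they carry the block that the family shares, at genes with the strongest summits (U1:95Ca, U5:63BC, U6:96Ac, U1:21D, U2:34ABb, 7SKa), at genes with no summit in any list (U1:95Cc, U2:38ABa), at the gene where the lists disagreed (U4:39B) and at the gene where the block fell short (7SKb). Each runs from 75 bases before the start to 10 bases from it, 85 bases read from the RefSeq genome sequence of Release 6 (dm6), with 1-based coordinates. Capitals mark the block, the 21 bases that best match the most frequent base at each position over the 32 promoters.
U1:21D, chr2L:901645-901729, minus strand: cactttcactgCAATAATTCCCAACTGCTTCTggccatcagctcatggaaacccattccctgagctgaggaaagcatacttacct
U1:95Ca, chr3R:23859621-23859705, minus strand: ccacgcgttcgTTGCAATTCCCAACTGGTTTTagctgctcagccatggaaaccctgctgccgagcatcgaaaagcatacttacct
U1:95Cc, chr3R:23826259-23826343, plus strand: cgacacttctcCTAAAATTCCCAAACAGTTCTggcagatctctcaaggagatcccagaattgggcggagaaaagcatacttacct
U2:34ABb, chr2L:13215764-13215848, plus strand: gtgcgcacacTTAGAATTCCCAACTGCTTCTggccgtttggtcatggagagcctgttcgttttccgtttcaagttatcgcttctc
U2:38ABa, chr2L:19815796-19815880, minus strand: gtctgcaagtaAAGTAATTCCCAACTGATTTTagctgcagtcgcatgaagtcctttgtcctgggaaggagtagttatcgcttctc
U4:39B, chr2L:21215169-21215253, minus strand: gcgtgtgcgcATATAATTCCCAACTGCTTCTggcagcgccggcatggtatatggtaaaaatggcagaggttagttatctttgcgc
U5:63BC, chr3L:3090726-3090810, plus strand: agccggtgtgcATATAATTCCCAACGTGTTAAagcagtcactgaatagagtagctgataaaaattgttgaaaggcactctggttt
U6:96Ac, chr3R:24557140-24557224, plus strand: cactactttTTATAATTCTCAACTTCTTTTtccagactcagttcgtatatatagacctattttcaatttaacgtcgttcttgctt
7SKa, chr3R:7474987-7475071, minus strand: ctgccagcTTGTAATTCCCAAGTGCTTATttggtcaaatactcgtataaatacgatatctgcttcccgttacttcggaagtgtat
7SKb, chr3R:23432794-23432878, plus strand: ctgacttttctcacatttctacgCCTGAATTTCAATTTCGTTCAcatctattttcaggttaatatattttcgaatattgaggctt

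The block matched at 14 or more of its 21 positions in 31 of the 32 snRNA promoters (96.9%), compared with 146 of the 23609 other gene starts (0.618%). Its first base lay between −70 and −61 relative to the start, with a median of −64, at every gene except 7SKb. The median match was 17 of 21 bases and the range was 11 to 20. The best matches, at 20 bases, were those of U1:95Cb and U2:34ABc, and the weakest, at 11 bases, was that of 7SKb. The fly PSEA is known as an element of this length in this part of the promoter, and a match here is a description of letters, not of binding. The block was derived from these 32 promoters, so their own matches describe the family and test nothing. TATAAA was searched on both strands from 45 to 15 bases before the start and was found at 7SKa, U6:96Ab and U6atac, which is 3 of 32 (9.38%) against 8.76% of other starts. TATATA, a search added after the sequences had been seen, was present at the 3 U6 genes (9.38% of members, against 3.78% of other starts). GAGAG, searched on both strands over the 100 bases before the start, was found at 3 of 32 snRNA genes (9.38%) against 12% of other starts.

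Summits lay at some snRNA genes and not at others, and the share was close to that of protein-coding genes. In the thresholded list 8 of 32 snRNA genes had a summit (25%, exact 95% interval 11.5 to 43.4), against 26.7% of protein-coding genes and 17.8% of all annotated genes on the arms. In the pooled list 16 of 32 had one (50%, 31.9 to 68.1), against 44.7% of protein-coding genes and 33.3% of all genes. Protein-coding genes can have several annotated starts. With only the 5′ end of each gene, their shares were 24.1% thresholded and 42.6% pooled, and the snRNA counts were unchanged. The replicates gave 16, 18 and 17 snRNA genes, where 34.7%, 35.9% and 34.3% of all genes had a summit in replicates 1, 2 and 3. The replicate mean was 53.1% ± 3.12 of snRNA genes and 47.1% ± 1.36 of protein-coding genes (SD, n = 3 each). A summit was present in all 3 replicate lists at 13 of 32 snRNA genes (40.6%, 23.7 to 59.4), against 38.6% of protein-coding genes and 27.2% of all genes. The shares of protein-coding genes lay inside the snRNA intervals in each of these lists, so no difference between the classes could be shown with 32 genes. The intervals cover counting error only, and genes that share a locus are not independent.

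**Figure D1:**
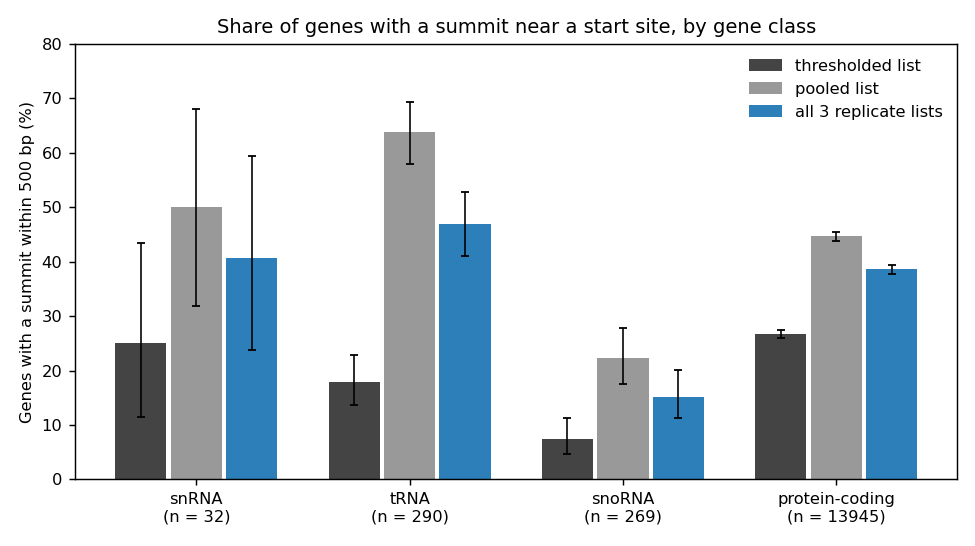
Share of genes with a summit within 500 bp of a start, in percent, for snRNA, tRNA, snoRNA and protein-coding genes, with bars for the thresholded list, the pooled list and presence in all 3 replicate lists. Lines are exact 95% intervals, and the wide snRNA intervals take in the protein-coding shares of 26.7%, 44.7% and 38.6%.

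Protein-coding neighbours touched few of the snRNA counts, but more of the protein-coding ones. Of the 32 snRNA genes, 27 had no protein-coding start within 1000 bp, and 7 of those 27 had a thresholded summit (25.9%, 11.1 to 46.3), against 16.2% of the protein-coding genes that are isolated in the same way and 9.93% of all such genes. In the pooled list the count was 14 of 27 (51.9%, 31.9 to 71.3), against 33.5% of isolated protein-coding genes and 23.7% of all isolated genes. The pooled share of isolated protein-coding genes lay inside the interval of the snRNA genes, near its lower bound. The shares of all isolated genes lay below the snRNA interval in both lists. Protein-coding genes with another coding start within 1000 bp had a thresholded summit in 40.8% of cases. The 5 snRNA genes with a close coding start were U2:34ABa beside CG15482 at 302 bp, U6atac beside CG42819 at 393 bp, U2:34ABb beside kek4 at 489 bp, U5:35D beside Mtr4 at 581 bp and U11 beside Fie at 599 bp. Of these, U2:34ABb had a thresholded summit and U2:34ABa a pooled one. Among other small RNA classes, tRNA genes had a thresholded summit in 17.9% of cases and a pooled one in 63.8%, and snoRNA genes in 7.43% and 22.3%.

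A thresholded summit lay at 3 of the 5 U1 genes and a pooled one at 4, against 17.8% and 33.3% of all genes. U1:21D, U1:82Eb and U1:95Ca had a summit in the thresholded list, U1:95Cb in the pooled and all 3 replicate lists, and U1:95Cc in none. U1:95Ca (FBgn0004185, 3R, 23859467 to 23859630, minus strand) had the strongest thresholded peak of any snRNA gene, with rank 3409 and a signal value of 614.7. Its summit, at 23859622, lay 30430 bp from the nearest protein-coding start, that of Pli. In replicates 1, 2 and 3 its nearest summit lay 7, −18 and 12 bp from the start (positive downstream), with ranks 3230, 3593 and 3851. The 3 lists thus placed it within 30 bp of each other. U1:21D (FBgn0003916, 2L, 901491 to 901654, minus strand) had a pair of summits in every list, at −51 and 149 bp in the thresholded list. The one before the start had ranks 11225, 7283 and 6934 in replicates 1, 2 and 3, and the one in the gene 5737, 4451 and 3935. Its upstream summit moved by no more than 6 bp between replicates, the smallest range among the 13 snRNA genes found in all 3 lists. In each replicate it fell inside the promoter block, which spans −64 to −44. It lay 202, 204 and 201 bp from the stronger summit in the gene, near the smallest spacing of 199 bp in every list. The part of that spacing in its position was not tested. U1:82Eb (FBgn0004183, 3R, 4947933 to 4948096, minus strand) showed the same layout, with pooled summits at −24 and 189 bp. Only the downstream one was thresholded, at rank 7115, and its replicate ranks were 7713, 6860 and 9104. U1:95Cb, in an intron of CG34355, had nearest summits at 174, 199 and −33 bp in replicates 1 to 3, with ranks 15218, 23008 and 13751. Replicate 3 had another at 189 bp, with rank 13707. U1:95Cc, also in an intron of CG34355, had its nearest summits 977, 1735 and 1503 bp away. These 5 copies are 98.2 to 100% identical in sequence, so a read from a stretch of the RNA-coding part without a difference cannot be assigned to 1 copy. Of the 50-base words within 500 bp of the U1 starts, between 9.14% and 14.1% occur elsewhere in the genome.

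Among the 6 U2 genes, which are 98.4 to 100% identical, 1 had a thresholded summit, against 17.8% of all genes. This was U2:34ABb (FBgn0004192, 2L, 13215839 to 13216030, plus strand). Its peaks ranked 4732 and 6471, with summits at 92 and 293 bp. In replicates 1 to 3 the nearest summit lay at 227, 17 and 81 bp, with ranks 4314, 4952 and 4779. All 3 replicates ranked it among their strongest peaks, while the position of the nearest summit varied by 210 bp. Replicates 2 and 3 also had a second summit, at 227 and 286 bp, with ranks 6757 and 6233. The 210 bp therefore compares different summits of a pair. U2:34ABa, which starts 302 bp from a start of CG15482, had summits at −37, −37 and 10 bp with ranks 11991, 20040 and 15009. U2:34ABc shares a locus with U5:34A and 1 pooled peak, of rank 16912, whose summit lay at −406 bp for U2:34ABc and at 119 bp for U5:34A. That peak therefore lay closer to U5:34A, and replicate 1 had no summit within 500 bp of either gene. The other U2 genes had none in any list. U2:14B missed the window narrowly, with nearest summits at −527, −681 and −662 bp in replicates 1 to 3. Those summits were the ones at U5:14B, its divergent neighbour on X. U2:38ABa and U2:38ABb, in introns of sick, had their closest replicate summits 1464 and 1671 bp away. Of their 50-base words, 53.2% and 48.1% occur elsewhere, the highest shares with the 48.2% of U2:34ABc, and the part of such repeats in missing summits was not tested.

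Of the 10 U4 and U5 genes only U5:63BC had a thresholded summit, against 17.8% of all genes. U4:39B (FBgn0003930, 2L, 21215036 to 21215178, minus strand), in an intron of Atg18b, had summits at −34, 33 and 88 bp in replicates 1 to 3. Their ranks were 6943, 5498 and 5554. Each lay within the strongest 8529 peaks of its replicate, yet the nearest pooled summit was 3454 bp away and the nearest thresholded one 18483 bp away. It was the only snRNA gene with a summit in every replicate list and none in the pooled list. Of 7 snRNA genes with a summit among the strongest 8529 peaks of all 3 replicates, it was the 1 missing from the pooled list (14.3%), against 28 of 2790 protein-coding genes (1%). U4:38AB, in an intron of sick, had summits at 100, 119 and 16 bp with ranks 13989, 20264 and 19615. U4:25F, which is 73.8% identical to U4:38AB, had none within 500 bp. Among the 7 U5 genes, U5:63BC (FBgn0003938, 3L, 3090801 to 3090923, plus strand) was thresholded, with summits at 69 and 271 bp and ranks 3720 and 8529. The second of these was the weakest peak of the thresholded list. In the replicates its nearest summit lay at 9, 77 and 89 bp, with ranks 2890, 3379 and 4528. U5:63BC therefore ranked in the same range as U1:95Ca, and its nearest protein-coding start, that of PAN3, lay 8823 bp away. U5:14B had summits at −28, 126 and 107 bp with ranks 21101, 19147 and 21175. U5:34A had them at 71 and 150 bp in replicates 2 and 3, with ranks 11695 and 19881. U5:35D had them at 288 and 317 bp in the same replicates, with ranks 16504 and 17108, and replicate 2 had a stronger one at 487 bp with rank 6942. All 3 genes had a summit in at least 2 replicates but none in the thresholded list. U5:23D, U5:38ABa and U5:38ABb had none, although a thresholded summit of rank 6999 lay 862 bp from U5:38ABb.

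The RNA polymerase III genes had a thresholded summit in 3 of 6 cases (50%, 11.8 to 88.2), and the RNA polymerase II genes in 5 of 25 (20%, 6.83 to 40.7), against 17.8% of all genes. In the pooled list the counts were 3 of 6 (50%) and 13 of 25 (52%, 31.3 to 72.2), against 33.3% of all genes. These intervals overlap, and 2 of the 3 RNA polymerase III genes share 1 peak. The 3 U6 genes are identical in sequence and lie side by side on 3R, from 24556088 to 24557321. A single thresholded peak, of rank 3927 with its summit at 24557097, lay 118 bp before U6:96Ac and 405 bp after the start of U6:96Ab. It was therefore counted for both, and the peak, from 24556959 to 24557210, ends before U6:96Ac begins at 24557215. In replicates 1 to 3 the summit nearest to U6:96Ac lay at −124, −101 and 65 bp, with ranks 7545, 3930 and 12178. A further summit inside or just past U6:96Ac, at 119 bp in the pooled list, ranked 11992. Replicate 3 had both, at −134 and 65 bp, with ranks 3529 and 12178. The intergenic summit between U6:96Ab and U6:96Ac was thus the stronger in each replicate. U6:96Aa, in an intron of Esyt2, had a summit only in replicate 1, at −474 bp and rank 29944 of 30000. 7SKa (FBgn0065099, 3R, 7474553 to 7474996, minus strand) had a thresholded peak of rank 6997 that covered the whole gene, with its summit at 182 bp. Replicate 1 had summits at 48 and 249 bp with ranks 12488 and 2493, and replicate 2 at 164 bp with rank 4080. In replicate 3 the nearest summit lay 833 bp away, with rank 1790, so 7SKa was the only thresholded snRNA gene without a summit in every replicate. 7SKb, annotated as a 7SK gene in an intron of CG4374, had 46.9% identity to 7SKa. Closest matches between different snRNAs ranged from 45.5%, for U7 and U5:14B, to 55.3%, for LU and U5:63BC. The identity alone thus does not set 7SKb apart as a copy of 7SKa. 7SKb lacked the block and had a summit in replicate 3 only, at −174 bp and rank 27115.

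Of the 4 minor spliceosome genes 1 had a summit within 500 bp, against 33.3% of all genes in the pooled list. This was U12, in an intron of Baldspot. It had summits at −36, −213 and 10 bp and ranks 11087, 25482 and 24148 in replicates 1 to 3. Its pooled peak ranked 15886. U4atac, in an intron of cno, and U6atac had none, and their closest summits in any list lay 1632 and 4591 bp away. U11, in an intron of Fie on the opposite strand, had none within 500 bp, but a thresholded summit of rank 3281 lay at 951 bp, and the replicates had it at 903, 944 and 945 bp. U7, in an intron of Eip63E, had summits at 67 and 43 bp in replicates 1 and 2, with ranks 10738 and 10276, and none within 500 bp in replicate 3. LU, an annotated snRNA gene in an intron of FASN2, had its closest summit 1402 bp away.

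**Figure D2:**
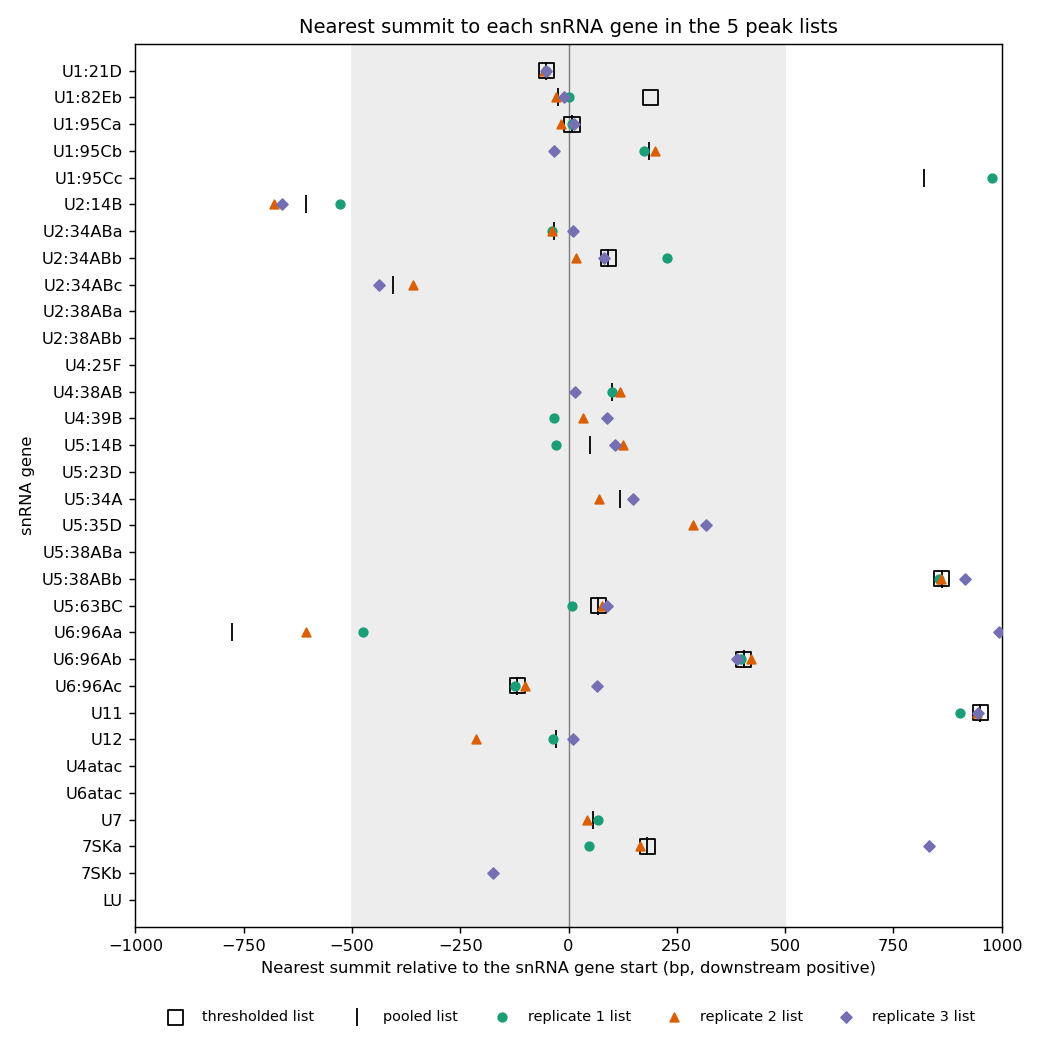
Position of the nearest summit to each of the 32 snRNA genes in base pairs from the start, downstream positive, in the thresholded list (squares), the pooled list (bars) and the 3 replicate lists (coloured points). Shading marks the 500 bp window, genes with no mark had their nearest summit beyond 1000 bp, and 12 genes have no replicate point in the shaded part.

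Replicate support split the family into a small number of outcomes. No replicate list had a summit at 12 of the 32 genes, 1 list had one at 2 genes, 2 lists at 5 genes and all 3 lists at 13 genes. Of the 13, the pooled list held 12 and the thresholded list 7. The replicate lists reach down to weak peaks, and no limit on q-value was applied. At U1:95Ca the −log10 q-value of the nearest summit was 3.39, 3.17 and 4.39 in replicates 1, 2 and 3. It was 3.3, 0.6 and 0.65 at U12, and 0.935, 1.26 and 0.967 at U5:14B. A summit in all 3 replicate lists is therefore not a significance call in each. The 32 genes fall into 26 loci when those within 1000 bp are joined, and 7 of 26 loci had a thresholded summit. In the 24 genes without one, the nearest thresholded summit lay between 862 and 22717 bp away, with a median of 5573 bp.

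The thresholded peaks at snRNA genes were of middle to low rank in that list. The 10 thresholded peaks within 500 bp of them ranked between 3409 and 8529 of 8529, and the nearest peak of each of the 8 genes had a median rank of 4329.5. Among the 4264 strongest thresholded peaks, 5 of 32 snRNA genes had a summit (15.6%, 5.28 to 32.8), against 15.3% of protein-coding genes. In the strongest 8529 peaks of replicates 1, 2 and 3 there were 9, 10 and 7 snRNA genes with a summit (28.1%, 31.2% and 21.9%), against 26.7%, 27.9% and 26.7% of protein-coding genes. No snRNA gene had a thresholded summit ranked above 3409. The share of other genes with a summit above that rank was not counted, so this absence describes the 32 genes only. Ranks of the same gene differed widely between replicates at some genes, such as U12, and were close at U1:95Ca, U2:34ABb and U4:39B.

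**Figure D3:**
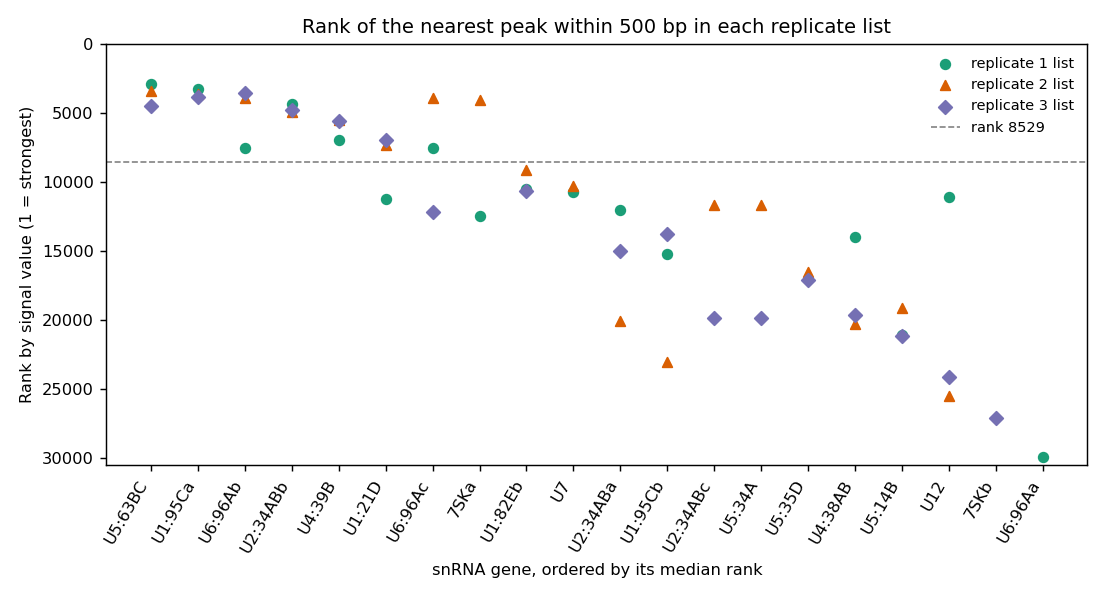
Rank by signal value (1 for the strongest, downward axis to 30000) of the nearest peak within 500 bp in replicates 1, 2 and 3, for the 20 snRNA genes with at least 1 such peak, ordered by their median rank. The dashed line is rank 8529, and U5:63BC, U1:95Ca, U2:34ABb, U4:39B and U6:96Ab have all 3 points above it.

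More summits lay in or past the snRNA genes than before them. Over the 13 genes with a summit in all 3 replicate lists, the median position of a gene's nearest summits was −101 to 399 bp, with a median of 33 bp. The distance without its sign had a median of 77 bp and a range of 7 to 399 bp. The nearest summits of the replicates differed by a median of 103 bp at the same gene, with a range of 6 to 232 bp. Where a replicate had a pair, this can compare different summits. Replicate 3 also had summits at 189 bp at U1:95Cb and −134 bp at U6:96Ac, nearer to those of replicates 1 and 2. At U12 and U4:38AB its second summits, at −415 and 241 bp, were no nearer. By nearest summits alone, most of these positions cannot be placed to the promoter block or to the RNA-coding part. In the pooled list the nearest summits had a median position of 53 bp at snRNA genes and −87 bp at protein-coding genes. Of 23 pairs of a gene and a pooled summit within 500 bp, 6 had the summit before the start, 9 inside the RNA-coding part and 8 past its end. In replicates 1, 2 and 3 there were 9, 9 and 10 such summits inside the RNA-coding part, 7, 10 and 9 past it and 7 in each before the start. Around snRNA starts, the fullest 100 bp bins of replicate 1 were the 4 from −100 to 300 bp, with 15.6 summits per 100 genes and 5 summits each. In replicates 2 and 3 the fullest bins ran from 100 to 200 bp and from 0 to 100 bp, with 25 summits per 100 genes and 8 summits each. Around the 5′ ends of protein-coding genes the fullest bin of every replicate was −200 to −100 bp, with 13.2, 14.8 and 13.9 summits per 100 genes in replicates 1, 2 and 3. An snRNA gene is 71 to 444 bp long, so a peak can span all of it.

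**Figure D4:**
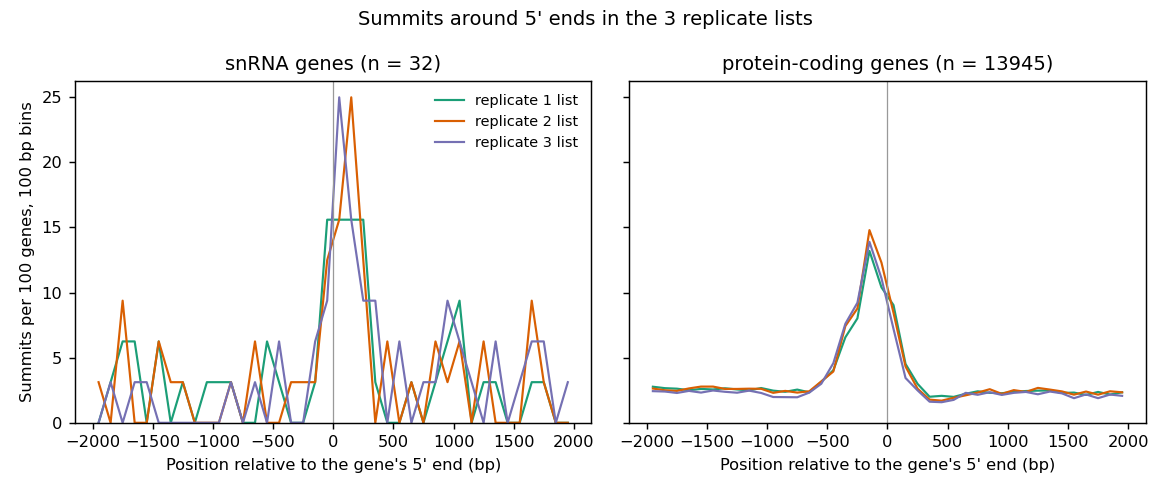
Summits per 100 genes in 100 bp bins from −2000 to 2000 bp around the 5′ end, for 32 snRNA genes (left) and 13945 protein-coding genes (right), with a line for each replicate list. The snRNA lines are highest between −100 and 300 bp and the protein-coding lines just before the 5′ end, and each snRNA bin holds 8 summits or fewer.

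Several snRNA genes had a pair of summits within 500 bp. In the thresholded list these were U1:21D, U2:34ABb and U5:63BC, with gaps of 200, 201 and 202 bp. The pooled list had 7 genes with a pair, of which 5 had a gap of 220 bp or less, and replicates 1, 2 and 3 had 7, 8 and 9, of which 6, 6 and 5 did. The widest gaps were 259 bp in the pooled list, at U2:34ABa, and 425 bp in replicate 3, at U12. The share of all genes with such a pair was not counted, so these counts describe the snRNA genes only. The smallest gap between any neighbouring summits was 199 bp in all 5 lists. Of all gaps, 8.11% in the thresholded list and 17% in the pooled list were 220 bp or shorter. The gaps in the thresholded list were thus at most 3 bp wider than the smallest spacing, and the part of that spacing in the pairs was not tested.

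The thresholded summits all lay at snRNA genes outside protein-coding genes. All 16 members that lie inside a protein-coding gene lie in introns of 10 hosts, 5 of them in sick and a pair each in FASN2 and CG34355. None of those 16 had a thresholded summit (exact 95% interval 0 to 20.6%), against 8 of the 16 outside such genes (50%, 24.7 to 75.3). In the pooled list 4 of 16 (25%, 7.27 to 52.4) inside and 12 of 16 (75%, 47.6 to 92.7) outside had one, and in all 3 replicate lists 4 of 16 (25%, 7.27 to 52.4) and 9 of 16 (56.2%, 29.9 to 80.2). The intervals overlap in the pooled list and in the replicates. This split was found after the values had been seen, and it was not tested. For comparison, 17.9% of tRNA genes inside and 17.9% outside protein-coding genes had a thresholded summit, and for snoRNA genes the shares were 6.1% and 12.5%. The 5 genes in sick share 1 neighbourhood, of which only U4:38AB had summits within 500 bp.

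Genes with and without near-identical copies both had summits. Of the 16 snRNA genes with another member at 95% identity or more, 6 had a thresholded summit (37.5%, 15.2 to 64.6) and 10 a pooled one (62.5%, 35.4 to 84.8). Of the 16 without such a copy, 2 had a thresholded summit (12.5%, 1.55 to 38.3), U5:63BC and 7SKa, and 6 a pooled one (37.5%, 15.2 to 64.6). The intervals overlap, and the shares over all genes were 17.8% and 33.3%. How the authors treated reads with several matches is not given in the sources used here, and its part in these counts was not tested. U5:63BC and 7SKa, had no near-identical copy, and 4.41% and 0% of the 50-base words around their starts occur elsewhere.

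Matches to the promoter block overlapped between genes with and without summits. The median match was 17.5 of 21 bases at the 8 thresholded genes and 17 at the other 24. It was 18 bases (16 to 20) at the 13 genes with a summit in all 3 replicate lists and 16 bases (16 to 19) at the 12 with none. At least 18 bases matched at 10 of the 13 (76.9%, 46.2 to 95) and at 3 of the 12 (25%, 5.49 to 57.2), a limit chosen after the values had been seen, and these intervals overlap. U4atac and U5:38ABa, with 18 matching bases, and U11, with 19, had no summit within 500 bp, whereas U5:63BC, with 16, had one of the strongest. The block was thus present at snRNA genes whether or not a summit was called there.

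**Figure D5:**
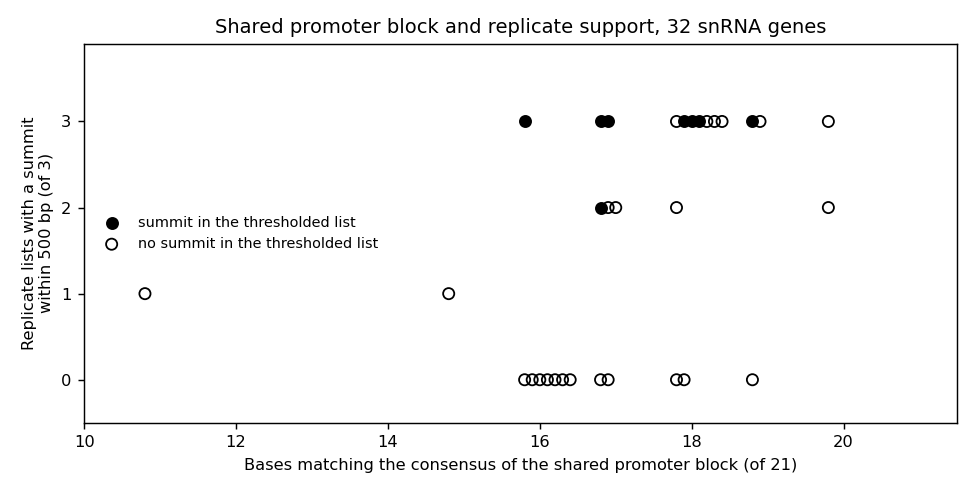
Bases matching the consensus of the 21-base promoter block against the number of replicate lists with a summit within 500 bp, for the 32 snRNA genes. Filled points have a summit in the thresholded list, and points with the same values are set side by side, so that genes with 16 to 19 matching bases appear at both 0 and 3 replicate lists.

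Other non-coding RNA genes, listed as candidates for a promoter of the snRNA kind, had summits in some cases. U3 snoRNA guides early cleavage of ribosomal RNA precursors and RNase MRP acts in the same process. U3:54Aa, U3:54Ab, U3:9B and RNaseMRP:RNA carried the block with 17, 17, 17 and 18 matching bases. All 4 had a summit in the pooled list and in every replicate list, against 33.3% and 27.2% of all genes. None had one in the thresholded list. At U3:54Aa the replicate summits were weak, at 255, 247 and 246 bp with ranks 25014, 26613 and 16417. At U3:9B they lay at 186, 43 and 122 bp with ranks 9861, 16575 and 12822. At snoRNA:U3:54Ab the replicate summits lay 7, 0 and 22 bp from the start, with ranks 7830, 10988 and 11502. At RNaseMRP:RNA they lay at 86, 79 and 297 bp with ranks 5287, 8251 and 13886. The selenocysteine tRNA gene, with 17 matching bases, had a summit in replicate 3 alone. RNaseP:RNA, with 9 matching bases, and both 7SL RNA genes, with 8, fell short of the 14 bases set for the block. They had no summit in any list. Over all 146 other starts with the block, 28 had a thresholded summit (19.2%, 13.1 to 26.5) and 57 a pooled one (39%, 31.1 to 47.5), against 17.8% and 33.3% of all genes, so both intervals take in the share of all genes.

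Many protein-coding genes for the machinery that makes snRNAs had summits. Of 43 genes for SNAPc and RNA polymerase III factors, Integrator, little elongation and pausing factors, snRNP assembly and export factors and 7SK partners, 21 had a thresholded summit (48.8%, 33.3 to 64.5), against 26.7% of all protein-coding genes. Most machinery genes lie close to another gene, and 15 of the 21 peaks lay at another protein-coding gene too. Of 35 machinery genes with another coding start within 1000 bp, 18 had a thresholded summit (51.4%, 34 to 68.6), against 40.8% of protein-coding genes with such a neighbour. Of the 8 without one, 3 had a summit (37.5%, 8.52 to 75.5), against 16.2% of isolated protein-coding genes, and both intervals take in the share of the matching protein-coding genes. The pooled list had 32 of 43 (74.4%), against 44.7% of protein-coding genes and 59.5% of those with a coding neighbour. Replicates 1, 2 and 3 had 32, 31 and 30 (74.4%, 72.1% and 69.8%), against 46.6%, 48.6% and 46.1% of protein-coding genes. Among protein-coding genes with a coding neighbour the replicate shares were 61.8%, 64.6% and 61.2%. By role, the thresholded counts were 8 of 14 Integrator subunits, 4 of 7 SNAPc and RNA polymerase III factors, 2 of 5 elongation and pausing factors, 5 of 14 assembly and export factors and 2 of 3 7SK partners. The strongest peak was that of bin3, the methyltransferase that caps 7SK RNA. It ranked 100 in the thresholded list and 131, 154 and 73 in replicates 1 to 3, with its summit 225 bp from a start. Bdp1 and Brf, subunits of the RNA polymerase III factor TFIIIB, ranked 397 and 467. Their replicate ranks were 655, 432 and 282 for Bdp1 and 711, 437 and 404 for Brf. The Bdp1 summit also lay within 500 bp of CG6565, and the Brf summit within 500 bp of sds22. All 3 ranked far above any peak at an snRNA gene. Of the SNAPc subunits, named after their values had been seen, Pbp49 had a thresholded peak of rank 7579, Pbp95 had summits in replicates 2 and 3 only, and Pbp45 had none in any list.

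The gene of the tagged protein, CG18262 (X, 8152948 to 8154533, plus strand), had no thresholded summit within 500 bp, and the nearest lay 4536 bp away with rank 1175.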

How the data were processed

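ChIP-seq peaks of CG18262 fused to GFP were analysed in 3 biological replicates of embryos, as the labels number them. Each list holds, per the file listings, peaks that the authors derived on dm6 from alignments and 1 control file. No source used here gives the aligner or the peak caller. The deposited lists give a signal value, used as a score to rank peaks within a list, a −log10 q-value as the narrowPeak format defines it, which was not used to rank, and peak positions and summits. No read counts were analysed, so the depth behind a peak is unknown and precision is known only from the 3 replicates and from counting intervals.

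Summits were matched to starts of the Ensembl release 115 annotation (BDGP6.54) within 500 bp. All 32 snRNA genes have the same coordinates in the RefSeq annotation. Shares have exact Clopper-Pearson 95% intervals, which cover counting error only. Overlap of such intervals does not show that the shares are equal. No hypothesis test was made, since the samples form 1 group. Loci joined genes within 1000 bp, near-identical copies shared 95% of bases or more in a global alignment, and repeated sequence was counted as 50-base words within 500 bp of a start that occur elsewhere. The promoter block was the 21-base ungapped stretch most alike over the snRNA genes between −90 and −30, and other starts were scored against it with at least 14 matching bases. The counting was tested on simulated data. Python 3.11.15, NumPy 2.4.6, SciPy 1.17.1, Biopython 1.88 and matplotlib 3.10.9 were used. The 32 genes, the machinery list of 43 genes and the windows were chosen with earlier results of these data known. Every snRNA gene was to be described, hosts and coding neighbours named by position, and the 3 machinery genes with the strongest thresholded peaks named. The other non-coding RNA genes listed as candidates for an snRNA-like promoter were all to be given, and of these snoRNA:U8 matched no annotated gene. The machinery symbols NELF-A and NELF-E were matched as Nelf-A and Nelf-E, and Ell as Su(Tpl). Alternatives were windows of 200 and 1000 bp, a peak that covers the start, stronger peaks only, lists of equal length, joined loci, genes without a near-identical copy and each replicate left out.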

Additional observations from a re-analysis of the deposited data

Results flagged for a closer look

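Peaks on the mitochondrial genome lay outside the measurement used here, since all snRNA genes lie on chromosome arms. Replicate 1 listed 24 such peaks and replicate 2 listed 23, while the replicate 3, pooled and thresholded lists held 0.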

How the results depend on the processing

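No alternative reversed a result, and 31 of 42 alternatives stayed within the limit set for a change. The 11 that moved were those that kept only strong peaks, that removed genes with copies or that measured distance otherwise. With the 4264 strongest thresholded peaks, 5 snRNA genes rather than 8 and 11 machinery genes rather than 21 had a summit. With only the strongest 8529 peaks of a list, the replicate mean was 8.67 rather than 17, and the count in all 3 replicates 7 rather than 13. The pooled count was then 8 rather than 16. The strongest 8529 pooled peaks are the thresholded list itself, so that alternative repeats the thresholded count and is no separate check. Among the 16 genes without a near-identical copy, the counts were 2 thresholded, 6 pooled, 6.67 per replicate and 5 in all 3 replicates. The median distance of thresholded summits from the start, 105 bp, was 80.5 bp in the pooled list and 133.5 bp with the strongest summit near each gene. With each replicate left out, the replicate mean was 16.5 to 17.5 genes and the count in both other lists 13 to 16. A window of 200 bp gave 7 thresholded and 14 pooled genes, and one of 1000 bp 10 and 21. No paired analysis was possible because all samples form 1 group. The cause of these changes was not tested beyond the fewer peaks or genes that each alternative holds. Unknown read depth and 32 genes limit what these shares can show.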

Other observations

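Beyond the snRNA genes and the genes listed as candidates for similar promoters, a few other starts carried a close match to the promoter block. Of all other gene starts, 14 matched it at 16 or more of 21 bases, and these included the U3 genes, RNaseMRP:RNA and the selenocysteine tRNA gene. Of the rest, lncRNA:CR34335 on X, with 16 matching bases, and snoRNA:Me18S-C1968, with 17, had a summit in all 3 replicate lists, the pooled list and the thresholded list. CaMKI on chromosome 4, a protein-coding gene with 17 matching bases, had a summit in all 3 replicate lists and the pooled list. lncRNA:CR43461 and lncRNA:CR45631, with 17 matching bases each, and Taf12L, with 16, had none in any list. Among the 146 other starts with at least 14 matching bases, protein-coding genes made up 76, of which 22 had a thresholded summit (28.9%, exact 95% interval 19.1 to 40.5) and 36 a pooled one (47.4%, 35.8 to 59.2), close to the 26.7% and 44.7% of all protein-coding genes. These genes were named after their values had been seen.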
